A study of Mus musculus with 6 samples.

Results

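Transcripts of 9 genes were followed in cultured mouse B cells with and without Prmt1: 7 protein arginine methyltransferases (Prmt1, Prmt2, Prmt3, Carm1, Prmt6, Prmt5 and Prmt7) and the Prmt5 partners Wdr77 and Clns1a. They were taken by gene symbol from a raw read count table of 39017 genes, and each symbol matched 1 gene. All 9 were among the 18268 genes with enough reads to be tested.

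Induced germinal centre-like B cells (iGBs) are splenic B cells grown on 40LB fibroblast feeders, which display CD40L and secrete BAFF. The study compared iGBs from 3 Control mice with iGBs from 3 mice carrying floxed Prmt1, called Prmt1-null, with 1 RNA library per mouse. Both groups were C57BL6/J, carried Cγ1-cre, were harvested 3.5 days after plating in IL-4 (5 ng/ml in the labels, a lower concentration in the study's methods) and held 2 females and 1 male. The 40LB cells were removed with anti-H2K beads before RNA extraction. Cγ1-cre is expressed from the IgG1 constant-region locus and acts once a B cell is activated, so a culture can also hold cells that have not recombined, and the mice's ages were not given in the sources used here.

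Arginine methyltransferases transfer methyl groups from S-adenosylmethionine to arginines of histones, RNA-binding proteins and signalling proteins. Type I enzymes make asymmetric dimethylarginine, the type II enzyme Prmt5 makes symmetric dimethylarginine, and the type III enzyme Prmt7 makes monomethylarginine. Prmt5 works in the methylosome with Wdr77 (MEP50), its obligate partner, and Clns1a (pICln), which brings Sm proteins of the splicing machinery to it. In lymphocytes, Prmt1 and Prmt5 are both known to be induced upon activation.

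Of the 9 genes, 1 was lower in Prmt1-null iGBs (Prmt1) and 1 was higher (Prmt5), and 7 did not pass the test. Genes were called at an adjusted p under 0.05 with a mean normalized count above 100, in the quasi-likelihood test of edgeR, with p adjusted by Benjamini-Hochberg over all 18268 genes. The same rule called 216 of these genes (1.18%), of which 106 were higher (0.58%) and 110 lower (0.602%). Total counts per library ranged from 45343250 to 62774232, and a normalized count is a read count scaled to a common library size. Values in the 2 groups did not overlap for 3 of the 9 genes (Prmt1, Prmt5 and Carm1), against 3630 of all tested genes (19.9%). Prmt1 is the gene deleted by design. Of the 8 other genes, 2 did not overlap and 1 was called.

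**Figure D1:**
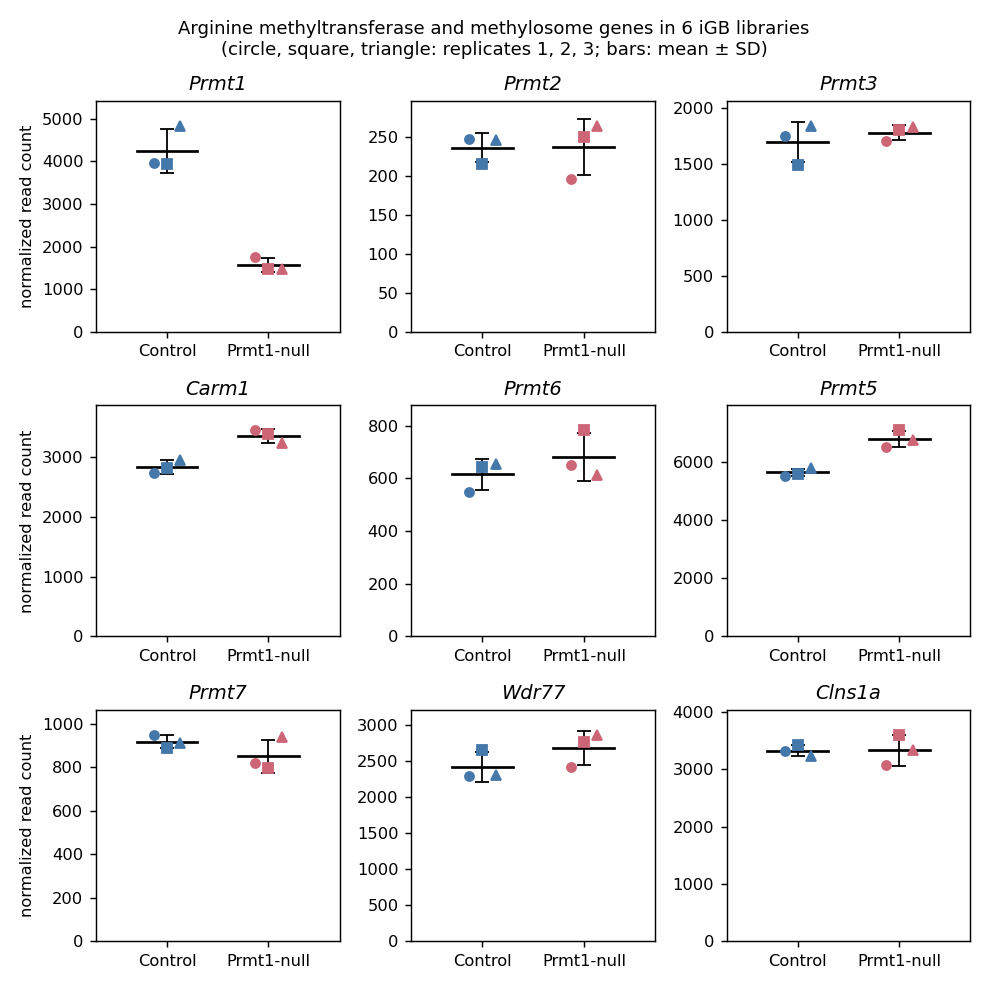
Normalized read counts (vertical axis of each panel, starting at 0) of the 9 genes in 3 Control and 3 Prmt1-null libraries. Points are libraries and bars give the mean ± SD. Prmt1 was lower in every Prmt1-null library, Prmt5 and Carm1 were higher in every one, and the groups of the other 6 genes overlapped.

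The libraries held the B cell genes their label calls for, with the B cell markers Cd79a, Cd79b, Ms4a1 and Pax5 expressed in every one. Normalized counts of Ms4a1 were 136342 to 142801 in Control and 148203 to 150389 in Prmt1-null libraries, and those of Cd79b were 26912 to 33348 and 34043 to 35222.5. Neither overlapped between the groups and neither was called (adjusted p = 0.480 and 0.257). Cd79a and Pax5 overlapped. Summed plasma cell markers were 27770.0 to 30478 and 31087 to 34823, which did not overlap, with Tnfrsf17 at 0 to 4 reads. Most of this was Xbp1, at 18433 to 18992 in Control and 20852.5 to 24471 in Prmt1-null libraries (log2 0.29, adjusted p = 0.0571), while Sdc1 stood at 0.52, Prdm1 at 0.29 and Jchain at -0.09, none of them called. Summed fibroblast markers were 1545 to 1770.0 and 1656 to 2155, which overlapped, with Postn at 0 in all 6 libraries. Within this list Col1a1 (332 to 396 against 429.6 to 546, adjusted p = 0.173) and Sparc (65.6 to 91.3 against 97.2 to 165, adjusted p = 0.360) did not overlap and were not called. Summed T cell markers were 27.9 to 123 and 34.0 to 128. Summed myeloid markers were 494 to 684 and 843 to 865, most of it Adgre1 (300.1, 354 and 404 in Control; 565, 534 and 658 in Prmt1-null), which was called (adjusted p = 0.0319), while Cd14 had 0 to 2 reads. The other myeloid markers did not separate the groups. Csf1r (log2 0.33) and Itgam (0.11) were fitted higher and Lyz2 (-0.75) lower, all with overlapping values and none called. The part of these markers in the changes of Prmt1, Prmt5 and Carm1 was not tested.

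Prmt1, the main type I enzyme of mammalian cells and the gene targeted in these mice, lies on the minus strand of chromosome 7 (mm10, chr7:44975989-44986568, 11 exons). The Control libraries had 3964, 3924 and 4838 normalized counts of Prmt1, and the Prmt1-null libraries had 1745, 1478 and 1477. Every Prmt1-null library lay below every Control library, and the highest Control value was that of replicate 3. Prmt1 fell by 1.44 on the log2 scale (SE 0.0950, adjusted p = 1.11e-05), the smallest p of all tested genes. The ratio of group means was 36.9%, and the single Prmt1-null libraries held 41.1%, 34.8% and 34.8% of the Control mean. The log2 ratio was -1.44 between the females of both groups and -1.42 between the 2 males.

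The library counts sum reads over all exons of Prmt1, and which exons are floxed was not given in the sources used here, so these counts do not tell which of the remaining reads come from a recombined allele. In bulk RNA, fewer cells with transcript and less transcript per cell cannot be told apart.

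None of the other 4 type I genes passed the test. Carm1 (chr9:21546894-21592623), a coactivator-associated enzyme that methylates histone H3 and splicing factors, had 2729, 2821 and 2957 normalized counts in Control and 3454, 3385 and 3230.0 in Prmt1-null libraries. Its values did not overlap between the groups, but the fitted change of 0.24 on the log2 scale (1.18-fold, 95% interval 1.07 to 1.30) did not pass the test (adjusted p = 0.0978). DESeq2's Wald test, run on the same counts, did call Carm1 (adjusted p = 0.0277), while over all 14 alternatives its adjusted p ran from 0.0277 to 0.310. The log2 ratio was 0.24 between females and 0.24 between males. Carm1 shares 1025 bases of exon with Yipf2 on the opposite strand, and the strand setting of the counting was not given in the sources used here, so some of these reads may belong to Yipf2.

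Prmt3 (chr7:49778346-49858265), a ribosomal protein methyltransferase of the cytoplasm, had 1753, 1491 and 1842 normalized counts in Control and 1702, 1804 and 1831 in Prmt1-null libraries. The groups overlapped, and the fitted 1.05-fold had a 95% interval of 0.912 to 1.21 (adjusted p = 0.807). Prmt6 (chr3:110246109-110250998), a nuclear enzyme that methylates histone H3, had 547, 643 and 654 normalized counts in Control and 649, 783 and 611 in Prmt1-null libraries. These overlapped too (1.11-fold, interval 0.911 to 1.35, adjusted p = 0.685). A noncoding gene on the opposite strand covers 984 bases of Prmt6 exon, which leaves its reads uncertain in the same way. Prmt2 (chr10:76207222-76237865), a weakly active enzyme known as a coactivator of nuclear receptors, was the least abundant, with 248, 215 and 246 normalized counts in Control and 196, 249.8 and 265 in Prmt1-null libraries. Its fitted fold was 1.00 and its interval the widest of the 9 genes, 0.773 to 1.31 (adjusted p = 0.992).

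Prmt5, the type II enzyme, lies on chromosome 14 (mm10, chr14:54507187-54517525) with no overlapping annotated exon. It had 5541.5, 5607 and 5789 normalized counts in Control and 6531, 7106 and 6762 in Prmt1-null libraries. All 3 Prmt1-null values lay above all 3 Control values, and the gap between the groups (5789 to 6531) was wider than the range within either one. Prmt5 rose 1.20-fold in Prmt1-null iGBs (log2 0.27, SE 0.0574, 95% interval of the fold 1.11 to 1.31, adjusted p = 0.0396). The log2 ratio was 0.26 between females and 0.29 between males. The call was lost without Control replicate 1 (adjusted p = 0.0767), Control replicate 2 (0.167), Prmt1-null replicate 1 (0.105), Prmt1-null replicate 2 (0.225) or Prmt1-null replicate 3 (0.130), and held without Control replicate 3 (0.0312). The log2 change stayed between 0.24 and 0.30 in these fits. Over all 14 alternatives the adjusted p of Prmt5 ran from 0.00157 to 0.225, and 6 of them ended its call.

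Prmt7 (chr8:106210936-106252794), the type III enzyme, had 951, 890.3 and 914 normalized counts in Control and 820.1, 796 and 939.6 in Prmt1-null libraries. The groups overlapped, and the fitted fold of 0.928 (interval 0.789 to 1.09) did not pass (adjusted p = 0.735). Thus Prmt5 was the only enzyme other than Prmt1 that passed in edgeR.

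**Figure D2:**
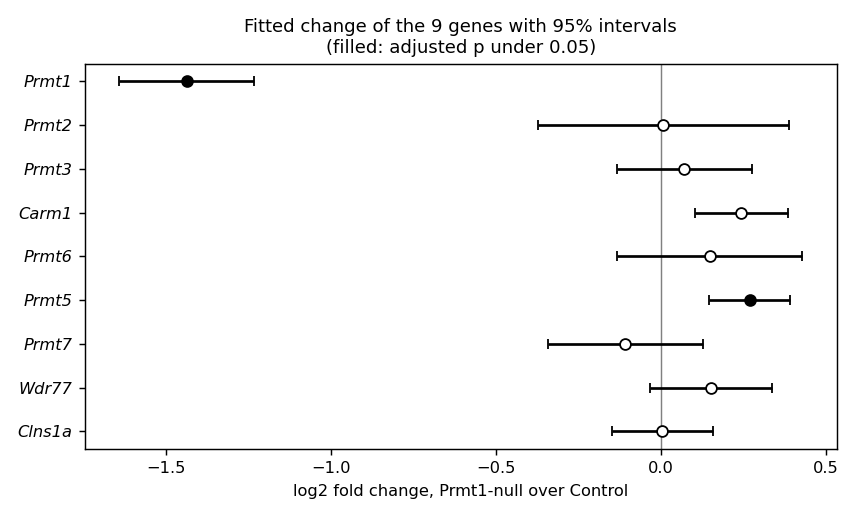
Fitted log2 fold change of Prmt1-null over Control (horizontal axis) with its 95% interval for each of the 9 genes. Filled points were called. Prmt1 stood at -1.44, Prmt5 at 0.27 and Carm1 at 0.24, and the intervals of the other 6 genes included 0.

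The methylosome partners did not pass the test. Wdr77 (chr3:105959369-105970037), the WD40 protein that forms a complex with Prmt5, had 2295, 2659 and 2305 normalized counts in Control and 2425, 2769 and 2872 in Prmt1-null libraries. The groups overlapped (1.11-fold, interval 0.977 to 1.26, adjusted p = 0.478). Its log2 ratio was 0.07 between females and 0.32 between males, where each group had 1 male. Clns1a (chr7:97696634-97720796) had 3324, 3432 and 3227 normalized counts in Control and 3069.9, 3607 and 3331 in Prmt1-null libraries. Its fitted fold was 1.00 with an interval of 0.902 to 1.115 (adjusted p = 0.989). The upper end of this interval lay just above the lower end of that of Prmt5 (1.106). Wdr77 shares 1389 bases of exon with the same-strand gene Gm42890 and 337 with Atp5f1 on the opposite strand, which makes its counts less certain than those of Prmt5.

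The proportion of each partner to its enzyme was then compared within libraries. The ratio of Clns1a to Prmt5 normalized counts was 0.600, 0.612 and 0.557 in Control and 0.470, 0.508 and 0.493 in Prmt1-null libraries. Every Prmt1-null ratio was below every Control ratio, and the mean log2 ratio was lower by 0.27 (-0.27, Prmt1-null minus Control). Clns1a itself changed by 0.004 on the log2 scale, so this difference in ratio restates the rise of Prmt5. An exact permutation test (two-sided, 6 libraries) gave p = 0.10, the smallest value that 3 against 3 allows. The ratio of Wdr77 to Prmt5 was 0.414, 0.474 and 0.398 in Control and 0.371, 0.390 and 0.425 in Prmt1-null libraries, which overlapped (mean log2 difference -0.12, exact permutation p = 0.40). That difference was -0.04 without Control replicate 2 and -0.17 at the other end, without Prmt1-null replicate 3.

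**Figure D3:**
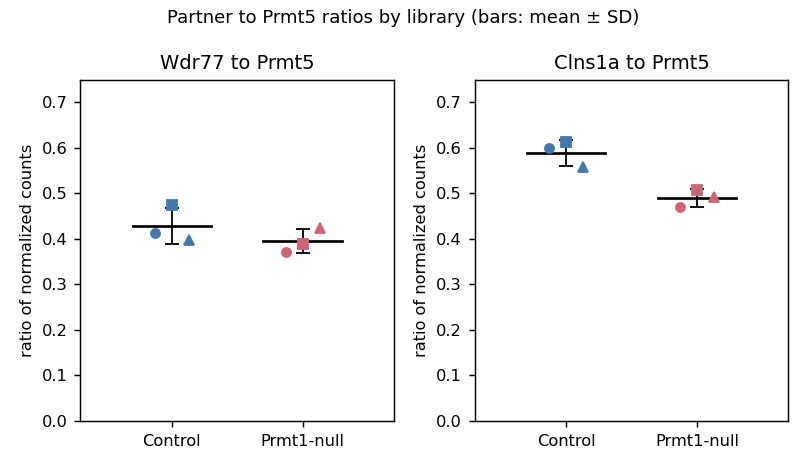
Ratios of normalized counts (vertical axes, from 0) of Wdr77 to Prmt5 and Clns1a to Prmt5 in each library. Points are libraries and bars the mean ± SD. The Clns1a ratios separated (0.557 to 0.612 in Control, 0.470 to 0.508 in Prmt1-null) and the Wdr77 ratios overlapped.

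Levels of different genes were compared as normalized counts per kilobase of exon, over the union of annotated exons. In Control iGBs the order was Prmt5 (1426 ± 32.4, SD, n = 3), Prmt1 (1239 ± 151), Clns1a (863 ± 26.6), Carm1 (584 ± 23.7), Wdr77 (499.9 ± 42.9), Prmt3 (283 ± 30.5), Prmt7 (149.99 ± 5.02), Prmt6 (146 ± 14.1) and Prmt2 (69.9 ± 5.42). Control values overlapped between neighbours for Prmt5 and Prmt1 and for Prmt7 and Prmt6, and were apart for the other neighbours. Within each Control library Prmt5 lay above Prmt1, with Prmt1 to Prmt5 ratios of 0.827, 0.809 and 0.966. With the length of the longest transcript these ratios were 0.897, 0.877 and 1.05. Thus the main type I and type II enzymes led the family, and their order in Control replicate 3 depended on the length used. In Prmt1-null iGBs, Prmt1 was at 509, 431 and 431 counts per kilobase (mean 457), below the mean of Wdr77 (555 ± 48.3) and above that of Prmt3 (297 ± 11.3), and Prmt5 led at 1718 ± 73.2. With the length of the longest transcript in place of the exon union, Prmt1 lay above Wdr77 in Prmt1-null iGBs, and in Control the order of Wdr77 (565) and Prmt3 (577) was turned, with overlapping values, while Prmt7 and Prmt6 no longer overlapped.

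Prmt1 made up 30.7%, 30.5% and 33.9% of the summed level of the 7 methyltransferases per kilobase in Control, and 14.5%, 11.9% and 12.4% in Prmt1-null libraries. The share of Prmt5 was 37.1%, 37.7% and 35.1% in Control and 47.1%, 49.7% and 49.0% in Prmt1-null libraries. So the Prmt1 to Prmt5 level ratio went from 0.867 ± 0.0859 to 0.267 ± 0.0365 (SD, n = 3). The summed level of the 5 type I genes was 2322 ± 205 counts per kilobase in Control and 1678 ± 47.0 in Prmt1-null iGBs. Without Prmt1, the other 4 type I genes summed to 1083.5 ± 53.9 and 1221 ± 33.7, a gap smaller than the Prmt1 difference between the groups. No test was made on these sums.

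**Figure D4:**
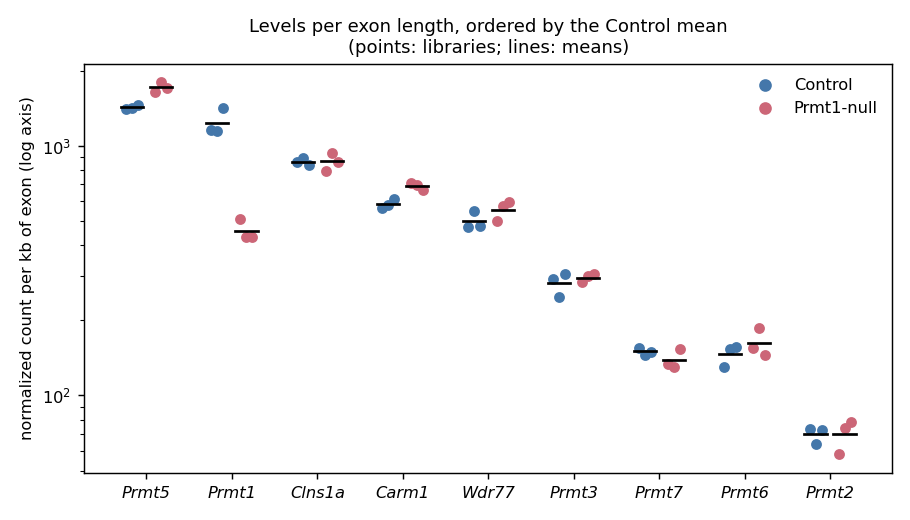
Normalized counts per kilobase of exon (log axis) of the 9 genes, ordered by the Control mean. Points are libraries and lines are group means. Prmt5 and Prmt1 led in Control at 1426 and 1239, and Prmt1 was at 457 in Prmt1-null iGBs.

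The promoters of these genes were read for the letters CACGTG, an E-box that Myc and Max can bind, since the study connects Prmt1 with Myc. The paper reports candidate E-boxes in the first intron of Prmt1 and calls Prmt5 another Myc target. Sites beyond the promoter windows were not read. RefSeq windows (GRCm38.p6, 250 bases before to 50 after the start) were at hand for 8 genes, all but Carm1. The E-box was present in 4 of them (Prmt1, Prmt3, Clns1a and Wdr77) and not in Prmt2, Prmt5, Prmt6 or Prmt7. It was present in 7.15% of all 32851 windows of this length. CACGTG reads the same on both strands. The 30 bases around each match are given 5′ to 3′ on the gene's strand, with the E-box in capitals, so that the flanks can be compared.
Prmt1: acccaatcgtcaCACGTGctgggtgagaca
Prmt3: gccccctacgccCACGTGacccggaagcgc
Clns1a: gggaaccgatgcCACGTGacaaaagccagc
Wdr77: gcagaggtacacCACGTGtgcggtccctcc
In Prmt1 (chr7:44986584-44986613, minus strand) the match began 181 bases before the RefSeq start (-181), so it is not among the intronic sites of the paper. In Prmt3 (chr7:49778333-49778362, plus strand) it began 13 bases before (-13) and in Clns1a (chr7:97696531-97696560, plus strand) 114 bases before (-114). In Wdr77 (chr3:105959495-105959524, plus strand) it began 9 bases after the start. These distances are from RefSeq starts, and the gene positions given earlier come from another annotation whose starts differ. A match describes letters only.

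Genes working with these enzymes were read from 6 lists holding 56 genes, of which 44 were tested. In edgeR 0 of the 44 were called (background 1.18%) and 5 had an unadjusted p under 0.05 (background 13.5%). DESeq2 called 4 of them and 709 over all genes, and limma-voom 0 and 249, where edgeR called 216 over all genes. The median log2 change was -0.01 over the 44 genes, 0.11 over the 8 members other than Prmt1 and -0.0008 over all genes tested. The 12 untested genes had 0 to 22 reads in every library. The highest was Ddah1, which degrades asymmetric dimethylarginine, with 0, 1 and 0 reads in Control and 6, 22 and 4 in Prmt1-null libraries, named after its values were seen and too low to test.

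**Figure D5:**
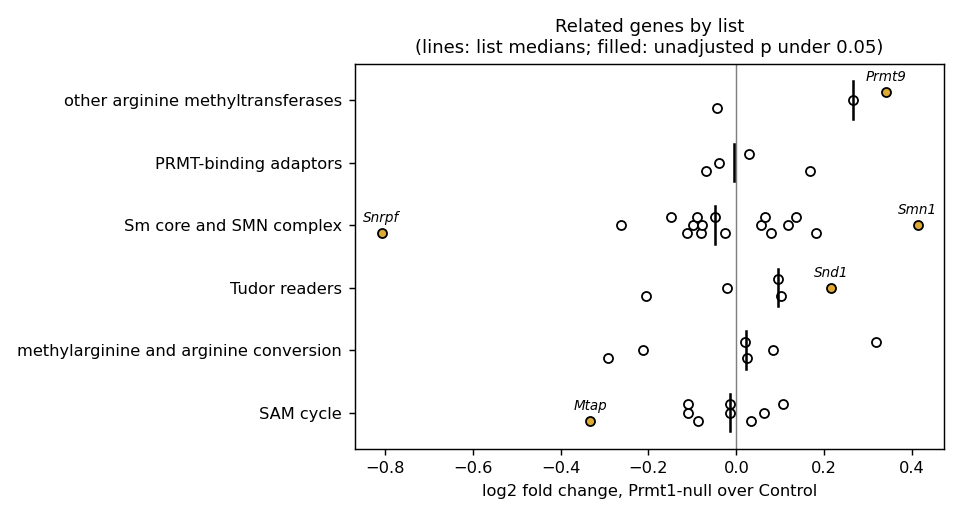
Log2 fold change of Prmt1-null over Control (horizontal axis) of the 44 tested related genes, by list. Vertical lines are list medians and filled points had an unadjusted p under 0.05. These were Prmt9, Snrpf, Smn1, Snd1 and Mtap, and none was called.

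Among the other arginine methyltransferases, Prmt8, the brain-enriched paralog of Prmt1, had 0 reads in all 6 libraries, which allows up to 2.63 to 3.64 normalized counts per library. Prmt9 (Prmt10 in the deposited table), which methylates a splicing factor symmetrically, had 835, 987 and 819 normalized counts in Control and 1049, 1099.8 and 1196 in Prmt1-null libraries. These did not overlap, yet the log2 change of 0.34 (SE 0.111) did not pass (adjusted p = 0.176).

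None of the 4 adaptors that bind Prmt1 or Prmt5 passed the test. Btg1 and Btg2, antiproliferative proteins that bind Prmt1, changed by 0.03 and -0.04 on the log2 scale (adjusted p = 0.888 and 0.834). Btg1 was abundant, at 42263 to 47175 normalized counts in Control and 43576 to 47488 in Prmt1-null libraries. Riok1, an alternative Prmt5 adaptor that competes with Clns1a, changed by -0.07 (adjusted p = 0.756). Coprs, which directs Prmt5 to histones, had only 27.5 to 62.3 normalized counts, and its interval, -0.73 to 1.06 on the log2 scale, left its change undetermined at this depth.

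The Sm core and SMN complex, which carry out assembly of splicing ribonucleoproteins after methylation by Prmt5, had 17 tested members, 7 fitted higher and 10 lower, with a median of -0.05. The methylated Sm proteins Snrpb (-0.10), Snrpd1 (-0.26), Snrpd3 (0.07) and Lsm4 (-0.08) had adjusted p from 0.412 to 0.872. Snrpd1 values did not overlap, at 413, 427 and 447 in Control and 371, 353 and 349.8 in Prmt1-null libraries. Picked for their unadjusted p after the values were seen, Smn1 stood at 0.41 (adjusted p = 0.119) and Snrpf at -0.81 (0.0790). Snrpf had 1142, 1028 and 636 normalized counts in Control against 393, 597 and 612, and shares 567 bases of exon with Ccdc38 on the opposite strand.

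Tudor proteins read methylarginine, and 5 of the 10 listed were tested, with a median of 0.09. Snd1, which binds symmetric dimethylarginine, was again picked for its unadjusted p and had 5312, 5176 and 5492.5 normalized counts in Control and 5991, 6115 and 6437 in Prmt1-null libraries (log2 0.21, adjusted p = 0.0933). The 6 tested genes of methylarginine and arginine conversion, such as Ddah2 and Jmjd6, had a median of 0.02 and no unadjusted p under 0.05.

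The S-adenosylmethionine cycle, which supplies the methyl donor and clears its product, had 9 tested genes with a median of -0.02. Mat2a, the enzyme that makes S-adenosylmethionine outside the liver, changed by -0.09 (adjusted p = 0.564), and Ahcy, which clears S-adenosylhomocysteine, by 0.11 (adjusted p = 0.568). Mtap clears methylthioadenosine, an inhibitor of Prmt5 when it builds up. It had 1784, 1556 and 1603 normalized counts in Control and 1369, 1176 and 1380.1 in Prmt1-null libraries, which did not overlap, and its log2 change of -0.33 (SE 0.0992) did not pass (adjusted p = 0.135) except in DESeq2.

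The genes closest to Prmt1 across the 6 libraries were found by the root-mean-square difference of centred log2 normalized counts. They were 2010109I03Rik (0.105), 2810468N07Rik (0.139) and Fstl1 (0.218, a secreted glycoprotein). Normalized counts of 2010109I03Rik were 192, 179 and 242 in Control and 94.2, 83.9 and 77.5 in Prmt1-null libraries. Those of 2810468N07Rik were 46.2, 47.4 and 50.7 against 16.2, 18.4 and 16.1, and those of Fstl1 70.5, 72.0 and 85.9 against 38.5, 38.7 and 34.0. None of the other 8 members was among these 3 genes, and they were chosen by this likeness, so no test is given.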

How the data were processed

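RNA was rRNA-depleted total RNA in stranded libraries. The authors trimmed reads with Trimmomatic 0.32, aligned them to mm10 (GRCm38) with STAR 2.3.0e and deposited raw read counts per Ensembl gene made with featureCounts 1.4.4. The strand setting of the counting and whether mates of a pair were counted singly were not given in the sources used here. Of the counts from 1 to 20, 70.1% to 72.5% were even.

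From these counts, genes with enough reads (filterByExpr, minimum count 10), leaving out 398 genes on chromosome Y, were fitted in R 4.3.3 with edgeR 4.0.16 (TMM scaling, quasi-likelihood test, Benjamini-Hochberg adjustment, no covariate), 3 against 3 libraries. Intervals are 95%. The code was tested on simulated data. DESeq2 1.42.0, limma 3.58.1 (voom) and other filters, scalings and covariates were alternatives. Exon positions and lengths come from GENCODE M21 annotation, also mm10, in which 37693 gene IDs matched directly, 803 by symbol (Prmt1 among them) and 521 not at all. Ratios of 2 genes were compared by an exact permutation test.

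The rule for named genes took the 9 members, any related gene called (there was none), a set of related genes whatever their values, and the 3 genes nearest to Prmt1. Smn1, Snrpf, Snd1 and Ddah1 were added after their values were seen. Members and lists were chosen with earlier results of these data known. A further B cell marker is not reported here.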

Additional observations from a re-analysis of the deposited data

How the results depend on the processing

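Prmt1 kept its direction and call in all 14 alternatives (log2 change -1.52 to -1.22). The number of members called was 2, but 1 with the replicate block (Prmt5 at 0.27, adjusted p = 0.0641), 1 to 2 with 1 library left out, and 3 with DESeq2, with or without its prior (Prmt1, Prmt5 and Carm1). Replicate numbers did not pair the libraries. Deviations of same-numbered libraries from their group means correlated at -0.37, 0.30 and -0.36, so the block describes shared numbers only. Over all pairs of a Control and a Prmt1-null library, the correlation was 0.54 for the 2 males. It was 0.24 to 0.30 between females and -0.40 to -0.36 between a male and a female. With the block, 151 genes were called in place of 216, and with sex as a covariate 283. Under the block Prmt2 also turned sign, at -0.000448. Small changes that did not pass turned sign with 1 library left out: Prmt2 ranged from -0.0807 to 0.129, Prmt3 from -0.0158 to 0.136 and Clns1a from -0.0508 to 0.0640. Related genes called were 0, but 4 with DESeq2 (Mtap, Snd1, Snrpf and Smn1) and 4 with DESeq2 with a prior, 2 without a filter on low counts, 1 with sex as a covariate and 0 to 1 with 1 library left out (Snrpf, without Control replicate 3). All genes called were 709 with DESeq2 and 709 with its prior, 675 without the filter, and 31 to 340 with 1 library left out (31 without Prmt1-null replicate 2, 340 without Control replicate 3). The Clns1a and Wdr77 ratios and the Prmt1 share moved by less than the spread between replicates under their alternatives, the log2 Wdr77 difference from -0.17 to -0.04 and that of Clns1a from -0.31 to -0.24. The causes of these shifts were not tested. Reads from low genes came largely in even numbers, so counting floors may be too small.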
